A study of Mus musculus with 6 samples.

Results

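Genes encoded by mitochondrial DNA were followed across labelled knockout and parental neural progenitor cells of the mouse. The mitochondrial genome carries 37 genes, of which 13 encode proteins, 2 encode ribosomal RNAs (rRNAs) and 22 encode transfer RNAs (tRNAs), and all of them were taken as members by an annotation symbol beginning with mt-. The deposited table held no symbol in that style and named the 13 protein genes as ND1, COX1 and so on, so the mt- symbols were taken from the GENCODE annotation of GRCm38 through the Ensembl gene IDs. Of the 42365 rows of the table, 35 belonged to members, while mt-Tf and mt-Tg had no row. A filter on low counts was passed by 26 members, which were the 13 protein genes, both rRNA genes and 11 tRNA genes.

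RNA was sequenced in 6 libraries labelled as neural progenitor cells (NPC), cells of the nervous system from which neurons and glia are made. They were 2 libraries of labelled knockout (KO) clone 1, 2 of labelled KO clone 2 and 2 of parental cells with the genotype wild type (WT). The library names of both KO clones begin with PARKIN_KO, so Parkin is the gene labelled as knocked out. No treatment or age is given in the labels. Each labelled KO line is a single clone, the parental titles also number clones, and nothing says that libraries of a group came from separate cultures, so a p-value reflects only how far these libraries scatter, part of which may be technical.

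Libraries held 60924858 to 69530032 counts in labelled KO clones and 58871554 and 63879208 in parental cells. Genotypes were taken from the labels, and a check of them against the counts is not reported here, so the clones are called labelled KO. Of 10 markers of neural progenitors, 9 reached 1 CPM (a gene's counts scaled to a common library size, with TMM-scaled sizes), with a summed level of 2754 to 3302 CPM in labelled KO clones and 3740 and 3752 CPM in parental cells. The defining markers did not move together. Sox1, a transcription factor, was at 3.0 to 3.5 CPM in labelled KO clones, against 60.4 and 60.5 CPM in parental cells, and Sox2 at 304 to 329 CPM, against 353 and 363 CPM. Nes, which encodes the filament protein nestin, was at 162 to 189 CPM in labelled KO clones, against 77.3 and 82.0 CPM in parental cells, and Pax6 overlapped between the groups. The groups also differed in other marker lists. All 3 proliferation markers reached 1 CPM and summed to 533 to 890 CPM in labelled KO clones, against 8.85 and 9.77 CPM in parental cells. The 6 astrocyte markers summed to 2168 to 2711 CPM in labelled KO clones, against 6498 and 6534 CPM in parental cells, and the 6 markers of the oligodendrocyte lineage to 4823 to 5871 CPM, against 1102 and 1108 CPM. The part of these differences in the mitochondrial values was not tested. Library 1 of clone 1 stood apart from the other library of its clone in the mitochondrial genes. Results that rest on it are therefore also given without it. It was chosen on these same values, and with 2 libraries in the clone, which of them departs cannot be told.

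Mitochondrial DNA is a small circle that is read on both strands as long precursor RNAs. The precursors are cut at the tRNAs that lie between the other genes, and the released pieces become mRNAs, rRNAs and tRNAs with very different lifetimes. The proteins are core subunits of complexes I, III, IV and V of oxidative phosphorylation, whose other subunits come from the nucleus. In the annotation, 1 protein gene (mt-Nd6) and 8 tRNA genes lie on the minus strand, and all other members on the plus strand.

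The mitochondrial genes as a whole took a similar share of the RNA in both genotypes. Their 35 rows held 6.86% and 5.57% of the counts in clone 1 and 5.68% and 5.41% in clone 2, against 5.37% and 5.73% in parental cells. The groups overlapped, and the highest share was that of library 1 of clone 1. The mean was 5.88% ± 0.661 in labelled KO clones (SD, n = 4 libraries of 2 clones) and 5.55% ± 0.259 in parental cells (SD, n = 2). The difference of 0.330 percentage points was smaller than the spread between labelled KO libraries, and it was 0.00471 percentage points without library 1 of clone 1. In bulk RNA, fewer cells of a type and less RNA per cell cannot be told apart.

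The 3 classes differed in how the groups lay. Protein genes made up nearly all mitochondrial counts, at 6.84%, 5.52%, 5.63% and 5.37% of the library in labelled KO clones, against 5.35% and 5.72% in parental cells, and the groups overlapped. The rRNA genes held 0.0114% and 0.0415% in clone 1 and 0.0436% and 0.0398% in clone 2, against 0.0149% and 0.00909% in parental cells. Here 3 labelled KO libraries lay above both parental ones and library 1 of clone 1 lay between them. The 20 tRNA rows held 0.00521% and 0.00412% in clone 1 and 0.00529% and 0.00507% in clone 2, against 0.0032% and 0.00345% in parental cells. For tRNA genes, whose counts were mostly those of mt-Tp, all 4 labelled KO libraries lay above both parental libraries.

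Levels between genes were compared per length, as CPM per kilobase averaged over all 6 libraries. mt-Co1, the catalytic subunit of complex IV, came first at 12915. It was followed by mt-Co2 at 8560, mt-Atp6 at 6254, mt-Co3 at 6016 and mt-Cytb at 5168. The complex I genes were lower and ran from 4314 for mt-Nd1 to 1102 for mt-Nd6. Neighbours in this order often overlapped between libraries, as mt-Atp6 (5227 to 7511) and mt-Co3 (5609 to 6704) did. mt-Rnr1 was at 116 and mt-Rnr2 at 98.3 CPM per kilobase, below the tRNA gene mt-Tp at 479. mt-Atp8, which overlaps mt-Atp6, was at 42.3, by far the lowest of the protein genes.

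**Figure D1:**
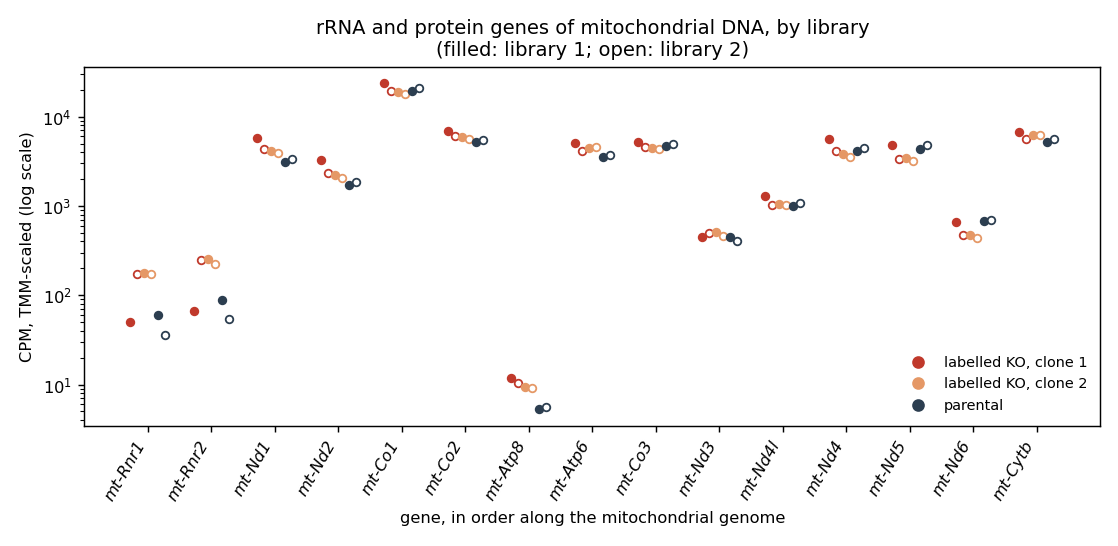
Level of each rRNA and protein gene (CPM on TMM-scaled library sizes, log axis) in order along the mitochondrial genome, with 1 point per library. The 4 labelled KO libraries lie above both parental ones for mt-Nd1, mt-Nd2, mt-Co2, mt-Atp8, mt-Atp6 and mt-Cytb and below both for mt-Nd6.

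Genes were first compared between labelled KO and parental cells with the 2 libraries of each clone added together, so that each clone counted once. In edgeR's quasi-likelihood test with Benjamini-Hochberg adjustment at 0.05, 6 of the 26 members tested were higher in labelled KO clones and 0 were lower, while 10 had an unadjusted p under 0.05 and DESeq2 called 7 as higher and 1 as lower. Among all 24506 genes tested, 26.7% were called, 13% of them as higher and 13.6% as lower. The members' share of calls was therefore close to that of all genes. The median log2 fold change was 0.22 over the 26 members and 0.03 over all genes tested. The 6 genes were mt-Nd1, mt-Atp6, mt-Atp8, mt-Rnr1, mt-Rnr2 and mt-Tp. Without library 1 of clone 1, 8 members were called: mt-Nd1, mt-Nd2, mt-Atp8, mt-Rnr1, mt-Rnr2 and mt-Tp higher, and mt-Nd5 and mt-Nd6 lower. Without library 2 of clone 1, the calls were mt-Atp8 and mt-Tp alone. Leaving out parental library 1 left mt-Rnr1 and mt-Rnr2 as the calls, and leaving out parental library 2 left 0, while 4 members had an unadjusted p under 0.05 in either case.

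The genes of complex I, the NADH dehydrogenase that feeds electrons into the chain, did not move as a block. mt-Nd1 and mt-Nd2, subunits of its membrane arm, had their highest values in labelled KO clones. mt-Nd1 was at 5779 and 4396 CPM in clone 1 and 4163 and 3936 in clone 2, against 3119 and 3378 CPM in parental cells. It rose by 0.52 on the log2 scale (SE 0.13, edgeR adjusted p = 0.0407), and was called under 8 of 16 alternatives in processing. mt-Nd2 was at 3311 and 2365 CPM in clone 1 and 2214 and 2060 in clone 2, against 1726 and 1834 CPM in parental cells. For both genes the 4 labelled KO libraries lay above the parental ones and library 1 of clone 1 was the highest. mt-Nd2 had a log2 fold change of 0.51 ± 0.15 (SE) and missed the threshold (adjusted p = 0.0572, edgeR). Without library 1 of clone 1 it was 0.34 ± 0.09 (adjusted p = 0.0412, edgeR), and without library 2 of clone 1 it was not called. Groups that did not overlap in CPM were common, at 56.6% of all genes tested (27.0% with labelled KO above and 29.6% with it below).

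At the other end of complex I, mt-Nd5 and mt-Nd6 had negative fold changes. mt-Nd5, the largest subunit encoded in mitochondria, was at 4756 and 3373 CPM in clone 1 and 3426 and 3157 in clone 2, against 4380 and 4794 CPM in parental cells. Only library 1 of clone 1 reached the parental range. The log2 fold change of mt-Nd5 was -0.29 ± 0.13 (adjusted p = 0.161, edgeR). mt-Nd6, the protein gene read from the opposite strand, was at 669 and 469 CPM in clone 1 and 473 and 432 in clone 2, against 686 and 702 CPM in parental cells. All 4 labelled KO libraries lay below both parental ones, by a small margin for library 1 of clone 1. Its log2 fold change was -0.41 ± 0.12 (adjusted p = 0.0648). Without library 1 of clone 1, mt-Nd5 fell by 0.45 ± 0.09 (adjusted p = 0.0154) and mt-Nd6 by 0.58 ± 0.08 (adjusted p = 0.00458, edgeR). Both then passed the threshold, but that library was singled out on the values of these same genes. Without library 2 of clone 1 instead, neither was called.

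The ends of mt-Nd5 and mt-Nd6 face each other and share 14 bases, in capitals here, on opposite strands. They are shown because reads from these bases belong to either gene, and the counting setting for strand was not stated in the sources used here, so RNA of the 2 strands cannot be told apart in either value.
mt-Nd5, last 40 bases (chrM:13526-13565, plus strand): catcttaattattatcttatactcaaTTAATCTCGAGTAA
mt-Nd6, last 40 bases (chrM:13552-13591, minus strand): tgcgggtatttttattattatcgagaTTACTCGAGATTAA

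The remaining complex I genes overlapped between the groups. mt-Nd3 was at 448 and 502 CPM in clone 1 and 505 and 466 in clone 2, against 448 and 406 CPM in parental cells, and its log2 fold change was 0.20 ± 0.09 (adjusted p = 0.178). mt-Nd4l was at 1298 and 1017 CPM in clone 1 and 1063 and 1016 in clone 2, against 1001 and 1085 CPM in parental cells. mt-Nd4, with which mt-Nd4l shares 7 bases, was at 5668 and 4084 CPM in clone 1 and 3818 and 3503 in clone 2, against 4146 and 4470 CPM in parental cells. Apart from library 1 of clone 1, which was the highest of the 6, labelled KO libraries lay below both parental ones for mt-Nd4. The log2 fold change was 0.11 ± 0.10 for mt-Nd4l and 0.02 ± 0.15 for mt-Nd4, and neither passed the test (adjusted p = 0.481 and 0.951, edgeR); the sign for mt-Nd4 turned under DESeq2 size factors and upper quartile scaling.

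Cytochrome b, encoded by mt-Cytb, is the mitochondrial subunit of complex III. mt-Cytb was at 6692 and 5646 CPM in clone 1 and 6154 and 6170 in clone 2, against 5203 and 5606 CPM in parental cells. All 4 labelled KO libraries lay above the parental ones, the closest by less than the parental libraries differed from each other. The log2 fold change was 0.22 ± 0.09 and missed the threshold (adjusted p = 0.15, edgeR).

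The complex IV genes, which encode the core of cytochrome c oxidase, showed no call with the clones as replicates. mt-Co1 was at 23873 and 19376 CPM in clone 1 and 18892 and 17745 in clone 2, against 19155 and 20679 CPM in parental cells. The parental values lay within the range of labelled KO libraries, and the log2 fold change was 0.03 ± 0.12 (adjusted p = 0.859), with the sign turned under upper quartile scaling. mt-Co3 was at 5256 and 4574 CPM in clone 1 and 4473 and 4398 in clone 2, against 4644 and 4956 CPM in parental cells. Its groups overlapped as well (log2 fold change -0.01 ± 0.10, adjusted p = 0.967). mt-Co2 was at 6969 and 5996 CPM in clone 1 and 5877 and 5597 in clone 2, against 5173 and 5519 CPM in parental cells. For mt-Co2 all 4 labelled KO libraries lay above both parental ones, yet the log2 fold change of 0.22 ± 0.10 did not pass the test (adjusted p = 0.178).

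Both mitochondrial genes of complex V, the ATP synthase, were higher in labelled KO clones. mt-Atp8, a small membrane subunit, was at 11.8 and 10.5 CPM in clone 1 and 9.47 and 9.25 in clone 2, against 5.27 and 5.53 CPM in parental cells. The groups were well apart, with both libraries of each clone above both parental libraries. It rose by 0.95 on the log2 scale (SE 0.16, edgeR adjusted p = 0.0108), a 1.94-fold difference. mt-Atp6, which forms part of the proton channel, was at 5115 and 4127 CPM in clone 1 and 4481 and 4578 in clone 2, against 3560 and 3693 CPM in parental cells. It rose by 0.37 (SE 0.09, adjusted p = 0.0362, edgeR), and without library 1 of clone 1 it was no longer called (0.26 ± 0.09, adjusted p = 0.0824). The call of mt-Atp6 held under 8 of 16 alternatives in processing.

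mt-Atp8 and mt-Atp6 lie on 1 mRNA and overlap in their reading frames by 43 bases, in capitals here. The stretch is shown because the counts of the pair were far apart: mt-Atp8 had 774 and 718 counts in clone 1, 627 and 570 in clone 2, and 338 and 326 in parental cells, while mt-Atp6 had 217685 to 335380 in a library. The rule for a read that touches both genes was not stated in the sources used here.
mt-Atp8, last 60 bases (chrM:7910-7969, plus strand): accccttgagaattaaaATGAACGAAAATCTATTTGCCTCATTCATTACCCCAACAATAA
mt-Atp6, first 60 bases (chrM:7927-7986, plus strand): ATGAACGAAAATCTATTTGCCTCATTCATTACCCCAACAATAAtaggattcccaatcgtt

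The counts of mt-Atp8 were 0.00231 and 0.00253 of those of mt-Atp6 in clone 1 and 0.00211 and 0.00202 in clone 2, against 0.00148 and 0.0015 in parental cells. The ratio was higher in all 4 labelled KO libraries.

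**Figure D2:**
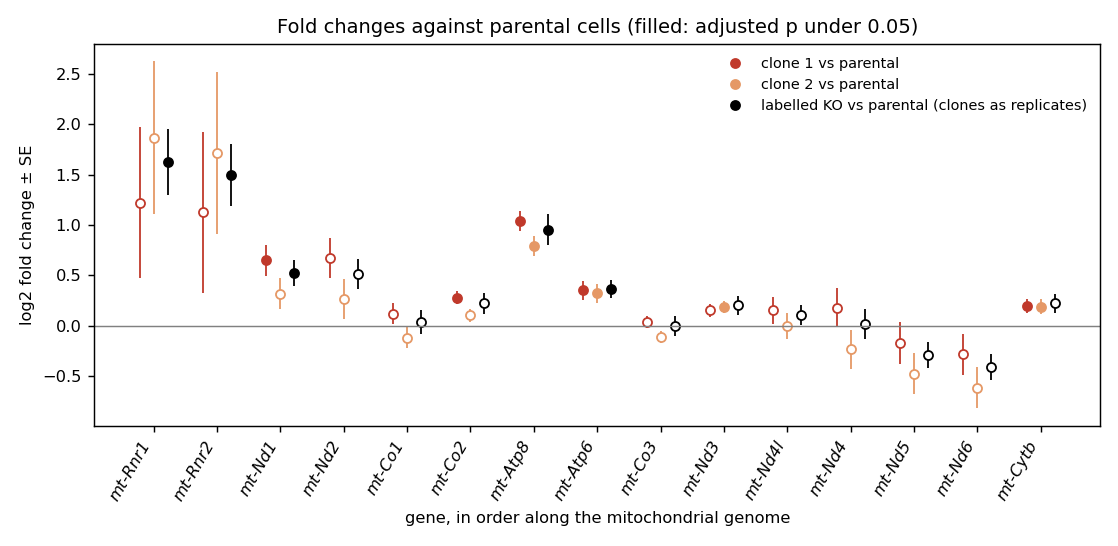
Log2 fold change against parental cells with its standard error for each rRNA and protein gene, in order along the mitochondrial genome. Clone 1 and clone 2 come from the fit of 6 libraries and the black points from the fit with clones as replicates; filled points passed an adjusted p of 0.05. The rRNA genes have the largest values and the largest errors.

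The make-up of the mitochondrial mRNA pool was described as each gene's share of the summed counts of the 13 protein genes, which does not depend on how libraries are scaled. These shares carry no test, because they were chosen after the values had been seen and an exact permutation test of 4 against 2 libraries cannot give a p below 0.0667. All 4 labelled KO libraries lay above both parental ones for mt-Nd1, mt-Nd2, mt-Co2, mt-Atp8 and mt-Atp6, and below both for mt-Co1, mt-Co3, mt-Nd5 and mt-Nd6. The other 4 genes overlapped. Relative to the same sum, 48.8% of all genes tested did not overlap between the groups (18.6% with labelled KO above and 30.1% with it below).

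mt-Nd1 made up 8.27% and 7.86% of the pool in clone 1 and 7.49% and 7.42% in clone 2, against 5.86% and 5.91% in parental cells. mt-Nd2 made up 4.74% and 4.23% in clone 1 and 3.99% and 3.88% in clone 2, against 3.24% and 3.21% in parental cells. These neighbours at the start of the plus-strand protein genes took larger shares in labelled KO clones. mt-Nd5, the last complex I gene on that strand, made up 6.81% and 6.03% in clone 1 and 6.17% and 5.95% in clone 2, against 8.23% and 8.39% in parental cells. mt-Nd6 made up 0.958% and 0.839% in clone 1 and 0.852% and 0.814% in clone 2, against 1.29% and 1.23% in parental cells. Both took smaller shares in all labelled KO libraries. mt-Cytb, which lies beyond mt-Nd5 on the plus strand, made up 9.58% and 10.1% in clone 1 and 11.1% and 11.6% in clone 2. Its parental shares were 9.77% and 9.81%, so its groups overlapped. mt-Co1, the largest part of the pool, made up 33.4% to 34.6% in labelled KO clones, against 36.0% and 36.2% in parental cells.

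Written as ratios between genes of the same library, these same counts give values that do not depend on library size and are no further support for the shares. The ratio of mt-Nd1 to mt-Nd5 counts was 1.21 and 1.30 in clone 1 and 1.22 and 1.25 in clone 2, against 0.712 and 0.705 in parental cells. Its mean was 1.24 ± 0.0415 in labelled KO clones (SD, n = 4 libraries of 2 clones) and 0.708 ± 0.00525 in parental cells (SD, n = 2). This SD is over libraries and does not measure how far clones vary. The means differed 1.76-fold, and library 1 of clone 1 did not stand apart in the ratio. The ratio of mt-Nd2 to mt-Nd5 was 0.696 and 0.701 in clone 1 and 0.646 and 0.652 in clone 2, against 0.394 and 0.383 in parental cells. By contrast, mt-Nd1 kept a ratio to mt-Nd2 of 1.75 to 1.91 in labelled KO clones, which spanned the parental values of 1.81 and 1.84. The ratio of mt-Nd6 to mt-Nd5 was 0.137 to 0.141 in labelled KO clones, against 0.157 and 0.146 in parental cells.

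**Figure D3:**
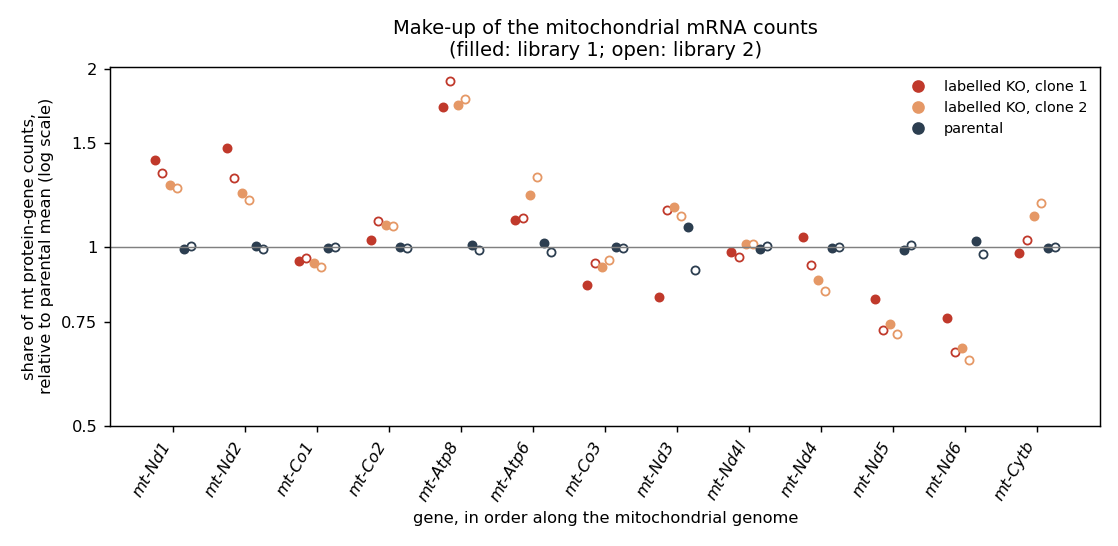
Share of each protein gene in the summed counts of the 13 mitochondrial protein genes, divided by the parental mean (log axis), with 1 point per library in order along the mitochondrial genome. mt-Nd1, mt-Nd2, mt-Co2, mt-Atp8 and mt-Atp6 lie above the parental points in all 4 labelled KO libraries, and mt-Co1, mt-Co3, mt-Nd5 and mt-Nd6 below them.

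The rRNA genes encode the RNAs of the small (mt-Rnr1) and large (mt-Rnr2) subunit of the mitochondrial ribosome. mt-Rnr1 was at 50.5 and 173 CPM in clone 1 and 177 and 172 in clone 2, against 59.5 and 36.1 CPM in parental cells. mt-Rnr2 was at 66.1 and 248 CPM in clone 1 and 253 and 221 in clone 2, against 89.3 and 54.7 CPM in parental cells. In both genes library 1 of clone 1 lay inside the parental range and the other 3 labelled KO libraries well above it. With the clones added up, which hides this spread within clone 1, mt-Rnr1 rose by 1.62 (SE 0.33, adjusted p = 0.0246, edgeR) and mt-Rnr2 by 1.5 (SE 0.31, adjusted p = 0.0269).

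The fit of single libraries, which sees that spread, called neither rRNA gene. mt-Rnr1 had a log2 fold change of 1.22 ± 0.75 in clone 1 (adjusted p = 0.278) and 1.87 ± 0.76 in clone 2 (adjusted p = 0.138), each against parental cells. mt-Rnr2 had 1.13 ± 0.80 in clone 1 (adjusted p = 0.335) and 1.72 ± 0.81 in clone 2 (adjusted p = 0.179). In the fit with clones as replicates the calls of both were lost without library 2 of clone 1 (adjusted p = 0.21 for mt-Rnr1 and 0.274 for mt-Rnr2) and without parental library 2 (adjusted p = 0.0511 and 0.0523). Without library 1 of clone 1, mt-Rnr1 rose by 1.87 ± 0.25 (adjusted p = 0.00718) and mt-Rnr2 by 1.76 ± 0.25 (adjusted p = 0.008).

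RNA of nuclear rRNA genes moved with them. The 124 nuclear gene models of type rRNA held 0.117% and 0.335% of counts in clone 1 and 0.23% and 0.27% in clone 2, against 0.0817% and 0.0493% in parental cells. Nearly all of these counts belonged to the model CT010467.1, with 78131 and 232270 counts in clone 1 and 149667 and 164299 in clone 2, against 51729 and 28603 in parental cells. Library 1 of clone 1 was the lowest labelled KO library in this measure too. The labels name a pair of library kits without saying which library was made with which, and the part of the kit or of rRNA carry-over in the rRNA values was not tested. The ratio of mt-Rnr2 to mt-Rnr1 counts was 1.29 to 1.44 in labelled KO clones, against 1.5 and 1.52 in parental cells, so all labelled KO libraries lay below the parental ones.

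**Figure D4:**
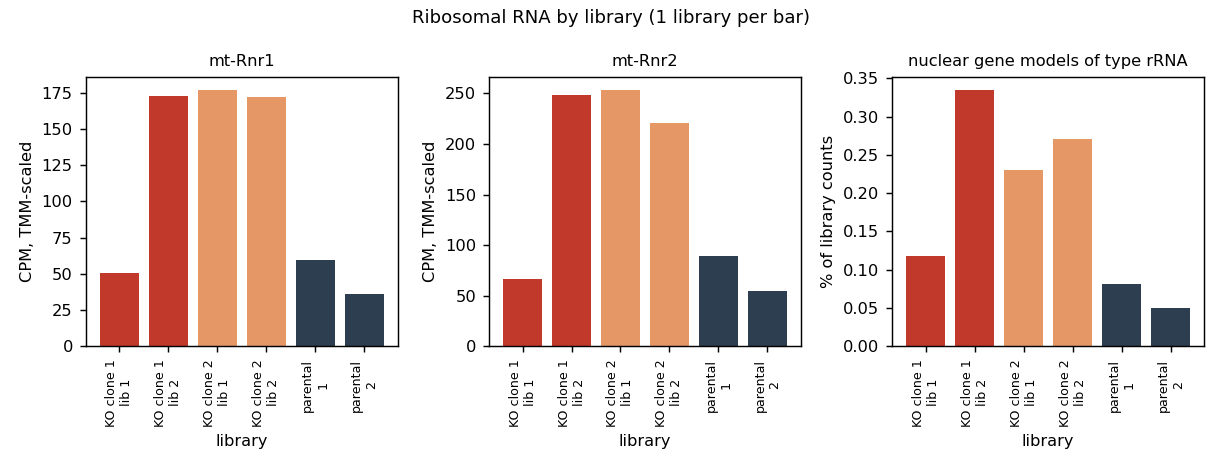
Level of mt-Rnr1 and mt-Rnr2 (CPM on TMM-scaled library sizes) and the share of counts in nuclear gene models of type rRNA (% of library counts), with 1 bar per library. In all 3 panels library 1 of clone 1 is the lowest labelled KO library, and for both mitochondrial genes it lies between the parental libraries.

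Among tRNA genes, mt-Tp stood out. It carries the anticodon for proline, lies on the minus strand and is the first gene met by transcription from the light-strand promoter. The sequences of mt-Tp and of the other 2 tRNA genes called in any comparison are shown with the anticodon in capitals, in DNA letters.
mt-Tp (chrM:15356-15422, minus strand): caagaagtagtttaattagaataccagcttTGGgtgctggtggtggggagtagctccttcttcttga
mt-Tw (chrM:4950-5016, plus strand): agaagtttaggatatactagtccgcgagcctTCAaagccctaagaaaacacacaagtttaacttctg
mt-Tl2 (chrM:11671-11741, plus strand): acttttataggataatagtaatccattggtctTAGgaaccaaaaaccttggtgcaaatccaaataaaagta

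mt-Tp had 2719 and 2208 counts in clone 1 and 2516 and 2307 in clone 2, against 1321 and 1340 in parental cells. This was 41.5 and 32.2 CPM in clone 1 and 38.0 and 37.4 CPM in clone 2, against 20.6 and 22.7 CPM in parental cells, with a clear gap between the groups. It rose by 0.81 on the log2 scale (SE 0.11, edgeR adjusted p = 0.00529), the smallest adjusted p of the 26 members tested. Leaving out a parental library ended the call (adjusted p = 0.107 without library 1 and 0.0624 without library 2). Its counts made up most of the tRNA class and so set the class share given above.

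The other tRNA genes were far lower, and none was called with clones as replicates. mt-Tn, which carries asparagine, had 234 and 210 counts in clone 1 and 285 and 222 in clone 2, against 293 and 219 in parental cells. mt-Tc, for cysteine, had 176 and 187 counts in clone 1 and 203 and 190 in clone 2, against 150 and 183 in parental cells. Neither separated the groups. mt-Ty, for tyrosine, had 119 and 79 counts in clone 1 and 127 and 90 in clone 2, against 88 and 98 in parental cells. mt-Te, for glutamate, had 97 and 76 counts in clone 1 and 123 and 109 in clone 2, against 92 and 75 in parental cells. These 4 genes overlapped between the groups, and their log2 fold changes ran from -0.16 for mt-Tn to 0.23 for mt-Te.

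On the plus strand counts were lower still. mt-Tk, for lysine, had 74 and 26 counts in clone 1 and 60 and 23 in clone 2, against 23 and 24 in parental cells, and its log2 fold change of 0.90 ± 0.27 missed the threshold (adjusted p = 0.0622, edgeR). Its high values were those of library 1 of each clone. mt-Ts2, for serine, had 16 and 3 counts in clone 1 and 15 and 16 in clone 2, against 12 and 10 in parental cells. mt-Tl2, for leucine, had 13 and 11 counts in clone 1 and 11 and 23 in clone 2, against 4 and 5 in parental cells. All 4 labelled KO libraries lay above the parental ones for mt-Tl2, and its log2 fold change of 1.62 ± 0.51 missed the threshold with clones as replicates (adjusted p = 0.0722). In clone 2 against parental cells it rose by 1.84 ± 0.63 (adjusted p = 0.0222), a call that rests on counts of 23 and fewer. Without library 2 of clone 2 it was 1.20 ± 0.85 and not called (adjusted p = 0.28), and the call was also lost without parental library 1 (adjusted p = 0.126) and without parental library 2 (adjusted p = 0.068, edgeR).

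mt-Tw, for tryptophan, separated the clones from each other. It had 15 and 23 counts in clone 1, 53 and 62 in clone 2, and 23 and 28 in parental cells. Both libraries of clone 2 lay above all others. It rose by 1.67 in clone 2 relative to clone 1 (SE 0.33, adjusted p = 0.000782, edgeR) and by 1.11 in clone 2 relative to parental cells (SE 0.31, adjusted p = 0.00674). The call against parental cells was lost without library 2 of clone 2 (adjusted p = 0.0594) and without parental library 1 (adjusted p = 0.0739, edgeR). In clone 1 relative to parental cells its log2 fold change was -0.55 ± 0.36 (adjusted p = 0.22).

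The 2 strands differed in how much tRNA signal they gave. The 8 minus-strand tRNA rows summed to 2770 to 3346 counts per library in labelled KO clones and to 1923 and 1955 in parental cells. Of these counts mt-Tp alone held 2208 to 2719 in labelled KO libraries and 1321 and 1340 in parental ones. The other tested genes of that strand (mt-Tn, mt-Tc, mt-Ty and mt-Te) overlapped between the groups. Of the 8 rows, 5 averaged at least 50 counts. The 12 plus-strand rows summed to 93 to 186 counts in labelled KO clones and to 88 and 107 in parental cells, and 0 of them averaged 50 counts. The 9 rows that were not tested (mt-Tv, mt-Tl1, mt-Ti, mt-Tq, mt-Ta, mt-Ts1, mt-Td, mt-Tr and mt-Tt) summed to 2 to 30 counts over all 6 libraries each. mt-Ta, at 30 the highest of them, had 0 and 1 counts in clone 1 and 14 and 6 in clone 2, against 6 and 3 in parental cells. Mature tRNAs are short and heavily modified, and counts on a tRNA gene can also come from uncut precursors or from reads of the opposite strand; these cannot be told apart here.

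**Figure D5:**
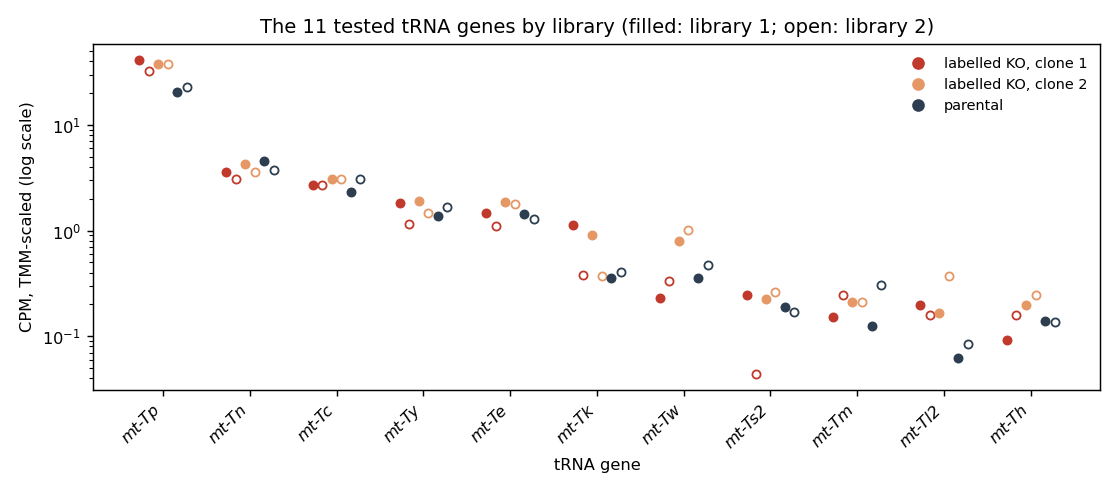
Level of the 11 tRNA genes tested (CPM on TMM-scaled library sizes, log axis), ordered from high to low by their mean CPM per kilobase, with 1 point per library. mt-Tp has its 4 labelled KO libraries at 32.2 to 41.5 CPM, above both parental ones, and mt-Tw has its highest points in clone 2.

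Each clone was also set against parental cells alone, which answers whether a difference was present in both lines. In clone 1, 6 members were higher and 0 lower, where 54.5% of all 23400 genes tested were called, 27.3% as higher and 27.2% as lower. They were mt-Nd1 (log2 fold change 0.65 ± 0.16, adjusted p = 0.0321), mt-Cytb, mt-Co2, mt-Atp6, mt-Atp8 and mt-Tp. In clone 2, 7 members were higher and 0 lower, where 53.5% of all genes tested were called, 26.7% as higher and 26.8% as lower. They were mt-Cytb, mt-Nd3, mt-Atp6, mt-Atp8, mt-Tp, mt-Tw and mt-Tl2. In both clones the members' share of calls in either direction was below that of all genes. An unadjusted p under 0.05 was reached by 9 members in clone 1 and 7 in clone 2, and DESeq2 called 7 as higher and 0 as lower in clone 1 and 8 as higher and 2 as lower in clone 2. The comparisons share the parental libraries, so their calls are not independent of each other. The calls and their direction changed with the library left out. A clone left with 1 library is then assumed to vary like the other groups, so these counts show instability only. For clone 1 there were 10 without its library 1, of which 7 were higher and 3 lower (mt-Nd5, mt-Nd6 and mt-Tn), and 12 without its library 2, all higher. For clone 2 there were 17 without library 1 of clone 1, of which 12 were higher and 5 lower (mt-Co1, mt-Co3, mt-Nd4, mt-Nd5 and mt-Nd6). Without library 2 of clone 1 there were 16, with 11 higher and the same 5 lower. Without library 2 of clone 2 there were 3, and without parental library 1 there were 4, all higher.

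mt-Atp8 rose by 1.04 ± 0.10 in clone 1 (adjusted p = 1.33e-07) and by 0.79 ± 0.10 in clone 2 (adjusted p = 4.32e-06, edgeR), each relative to parental cells. mt-Tp rose by 0.77 ± 0.11 in clone 1 and by 0.80 ± 0.11 in clone 2 (adjusted p = 0.000104 and 7.74e-05). mt-Atp6 rose by 0.35 ± 0.09 in clone 1 and by 0.32 ± 0.09 in clone 2 (adjusted p = 0.0183 and 0.0261), with the call in clone 2 lost without its library 2 (adjusted p = 0.063). mt-Cytb rose by 0.19 ± 0.07 in each clone (adjusted p = 0.0408 and 0.0429), close to the threshold. Its value in clone 1 was 0.08 without library 1 of that clone and 0.32 without library 2. It was called under 8 of 14 alternatives in clone 1 and under 7 of 14 in clone 2. The call of mt-Nd1 in clone 1 was lost without either library of clone 2, which share its estimate of spread (adjusted p = 0.0651 and 0.0639). mt-Nd1 had a log2 fold change of 0.32 ± 0.15 in clone 2 (adjusted p = 0.175), and the difference between the clones was not called (-0.33 ± 0.15, adjusted p = 0.204). mt-Nd6 had -0.29 ± 0.21 in clone 1 (adjusted p = 0.34) and -0.62 ± 0.21 in clone 2 (adjusted p = 0.0901). Without library 1 of clone 1, the log2 fold change of mt-Nd6 was -0.54 in clone 1 and -0.58 in clone 2. Without library 2 of clone 1 it was -0.04 in clone 1 and -0.60 in clone 2. In these fits clone 1 is a single library whose own scatter is not measured, so effect sizes alone are given.

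The clones were then compared with each other. Of the 26 members, 1 was higher in clone 2 than in clone 1 (mt-Tw) and 2 were lower, where 36.4% of all genes tested were called, 16.1% as higher and 20.3% as lower. mt-Co2 fell by 0.18 ± 0.06 (adjusted p = 0.0459) and mt-Atp8 by 0.25 ± 0.09 (adjusted p = 0.0493) in clone 2 relative to clone 1. Both calls were lost when mitochondrial genes were left out of the library sizes, and they were also lost without library 1 of clone 1, without either library of clone 2 and without either parental library. Without library 1 of clone 1, 8 members were called, 6 of them higher in clone 2, and without library 2 of clone 1 there were 14 calls, 12 of them lower in clone 2; without library 1 of clone 2 there was 1. The direction of the difference between the clones in mt-Atp6 and mt-Cytb turned with the library left out. mt-Atp6 was 0.15 without library 1 of clone 1 and -0.18 without library 2, and mt-Cytb was 0.14 and -0.12. Clone 1 is then a single library whose own scatter is not measured.

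Copies of mitochondrial genes in the nuclear genome limit what several of these values measure. By sequence, 11 nuclear gene models matched a member at 95% identity or more over at least 80% of the model, and 7 of them lay in a run on chromosome 1 (chr1:24611535-24616197, minus strand, GRCm38), annotated as unprocessed pseudogenes. These 7 held 2.60% to 3.18% of the counts in labelled KO clones and 2.57% and 2.73% in parental cells. There were 4 members that had a copy of nearly the same count in every library. The copy-to-gene ratio was 1.01 to 1.02 for Gm28437 and mt-Co3, 1.00 to 1.01 for Gm28661 and mt-Co2, 0.993 to 1.00 for Gm28438 and mt-Nd3, and 0.983 to 0.988 for Gm10222 and mt-Nd4l. Gm10925 had 1.60 to 1.75 times the counts of mt-Atp6, and it rose with it (log2 fold change 0.39 ± 0.09, adjusted p = 0.0351, edgeR). The sources used here do not state whether a read that maps to both places was counted at each, split or assigned to one.

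The closeness of the copies is shown by mt-Nd3, whose copy Gm28438 differs from it by 1 base in 345, T3C, counted from 1 at the first base of mt-Nd3 and in capitals here.
mt-Nd3, first 28 bases (chrM:9459-9486, plus strand): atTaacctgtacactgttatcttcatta
Gm28438, matching 28 bases (chr1:24613092-24613119, minus strand): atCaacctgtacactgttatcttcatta

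Gm28439 covers 63.6% of mt-Nd4 and had 0.507 to 0.543 of its counts, and Gm29216 covers 31.3% of mt-Co1 and had 0.281 to 0.332 of its counts. The ratio of Gm29216 to mt-Co1 was 0.282 and 0.289 in clone 1 and 0.282 and 0.281 in clone 2, against 0.326 and 0.332 in parental cells. No copy on chromosome 1 matched mt-Nd1, mt-Nd2, mt-Nd5, mt-Nd6, mt-Cytb or the rRNA genes. The copies elsewhere of mt-Nd2 (Gm13339) and mt-Nd5 (Gm4076) had at most 0.00162 of the counts of the gene. No model was assigned to mt-Atp8 either, but only annotated gene models were searched. A copy of mt-Atp8 in the stretch between Gm10925 and Gm28661 would not be found unless annotated. Adding each copy to its gene kept the number of calls in labelled KO against parental cells at 6. Of the 6 genes called without this step, only mt-Atp6 had a copy, and that copy rose with it. The count therefore could hardly change and does not show how shared reads bear on the calls.

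Nuclear genes that maintain and use mitochondrial DNA were counted as 5 lists, in the order in which the product acts. Most of their calls in labelled KO against parental cells were lost with either parental library left out. The lone parental sample is then assumed to vary like the other columns. For transcription and replication of mitochondrial DNA, 6 of 20 genes were called, all as higher in labelled KO clones, beside the 13% higher and 13.6% lower among all genes tested, with a median log2 fold change of 0.31. With each labelled KO library left out in turn, 4 to 7 were called. The median was 0.32 without parental library 1 and 0.28 without parental library 2. Polg, the catalytic subunit of the mitochondrial DNA polymerase, was at 170 and 189 CPM in clone 1 and 162 and 164 in clone 2, against 78.1 and 75.1 CPM in parental cells. It rose by 1.19 (SE 0.09, adjusted p = 0.000995, edgeR). Dna2, a helicase and nuclease, rose by 0.88 ± 0.18 (adjusted p = 0.0224), Tefm, the elongation factor of mitochondrial transcription, by 0.63 ± 0.15 (adjusted p = 0.0311), and Mgme1, an exonuclease of mitochondrial DNA, by 0.57 ± 0.13 (adjusted p = 0.0313). Of 2 genes singled out after their values were seen, Polrmt, the mitochondrial RNA polymerase, had a log2 fold change of 0.31 ± 0.14 (adjusted p = 0.162) and Tfam, which packages mitochondrial DNA and starts its transcription, 0.01 ± 0.14 (adjusted p = 0.967).

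For processing, stability and decay of mitochondrial RNA, 3 of 22 genes were higher and 1 was lower (median log2 fold change 0.12). Its share of higher calls was near the 13% of all genes tested, and its share of lower calls was below their 13.6%. Rexo2, an exonuclease that degrades short RNAs, was at 21.8 and 21.4 CPM in clone 1 and 20.9 and 22.1 in clone 2, against 41.8 and 41.6 CPM in parental cells. It fell by 0.92 (SE 0.09, adjusted p = 0.0024, edgeR). Pnpt1, the polynucleotide phosphorylase that degrades mitochondrial RNA, was at 23.4 and 21.2 CPM in clone 1 and 20.6 and 21.1 in clone 2, against 12.8 and 11.7 CPM in parental cells. It rose by 0.85 (SE 0.12, adjusted p = 0.00703). Ptcd2, a protein of the pentatricopeptide repeat family, rose by 0.54 ± 0.13 (adjusted p = 0.0358), and 1110008L16Rik by 0.55 ± 0.15 (adjusted p = 0.0467).

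For modification of mitochondrial tRNA and rRNA, 2 of 26 genes were higher and 1 was lower (median log2 fold change 0.20). The methyltransferase Trmt5 rose by 0.86 ± 0.15 (adjusted p = 0.0143, edgeR) and the tRNA-modifying GTPase Gtpbp3 by 0.50 ± 0.12 (adjusted p = 0.0336), and Qtrt2, a subunit of the queuine-inserting enzyme, fell by 0.56 ± 0.12 (adjusted p = 0.0267). Among mitochondrial aminoacyl-tRNA synthetases, 2 of 22 were higher and 1 was lower (median 0.08). Both shares of both lists were below those of all genes tested. Wars2, which loads tryptophan, rose by 0.63 ± 0.13 (adjusted p = 0.0212, edgeR), and Mars2, which loads methionine, fell by 0.70 ± 0.15 (adjusted p = 0.0239).

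Nuclear subunits of the same complexes were called as higher in 11 of 72 cases and as lower in 1, beside the 13% higher and 13.6% lower among all genes tested. With each labelled KO library left out in turn, 4 to 12 were higher and 0 or 1 lower. Their median log2 fold change was 0.24, against 0.20 over the 13 mitochondrial protein genes and 0.22 over all members tested, rRNA and tRNA genes included. By clone, the median of the nuclear subunits was -0.006 in clone 1 and 0.42 in clone 2, each against parental cells. Atp5c1, a subunit of the ATP synthase head, rose by 0.63 ± 0.08 (adjusted p = 0.00557, edgeR), and Cox7a2, a small subunit of complex IV, by 0.60 ± 0.09 (adjusted p = 0.00711). Between the clones, 54 of 72 nuclear subunits were higher in clone 2 than in clone 1 and 2 were lower, with a median of 0.43, beside 16.1% higher and 20.3% lower among all genes tested. With library 1 of clone 1 left out, 53 were higher and 1 was lower (median 0.32). The 13 mitochondrial protein genes had a median of -0.24 in the same comparison, but of -0.03 without library 1 of clone 1, where 2 of them were higher and 2 lower.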

How the data were processed

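RNA sequencing of 6 libraries was deposited as a table of raw counts per gene (whole numbers, not normalized, 42365 rows, smallest row sum 2). The submitters' processing notes name STAR, featureCounts and the builds GRCm38.p6 and mm10; how strand and multi-mapped reads were handled is not stated in the sources used here. Of the row IDs, 41869 were found in the GENCODE annotation of GRCm38, 41112 with the same version. Columns were matched to samples by library name, and groups came from the sample titles.

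Tests were run with edgeR 4.0.16 (R 4.3.3, limma 3.58.1). After filterByExpr (minimum count 10) and TMM scaling, genes were tested by robust quasi-likelihood, and p-values were adjusted over all genes tested by the Benjamini-Hochberg method (threshold 0.05). Labelled KO was set against parental with the libraries of each clone added (4 columns); each clone was tested in 1 fit of 6 libraries in 3 groups. The SE is the size of the log2 fold change divided by the square root of F. The scripts were tested on simulated data. The replicate numbers did not pair the libraries (correlations of deviations -0.0075, -0.0152 and 0.0191 over 23400 genes), so no block was used.

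The members and lists were chosen with earlier results of these data known. All 37 members could be named; protein and rRNA genes, the 8 tRNA genes with the highest mean count per kilobase and any called tRNA gene got values in every library, and of each list up to 4 genes with the smallest adjusted p were named, a few of which are not reported here. Sequences are GENCODE transcripts of GRCm38. Alternatives were other scalings, filters and tools (DESeq2 1.42.0, limma-voom), pseudogene copies added, a replicate block and each library left out.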

Additional observations from a re-analysis of the deposited data

Results flagged for a closer look

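In 3 members the 2 labelled KO clones differed from each other in edgeR's quasi-likelihood test, which is the test of the difference between the clones' effects against the shared parental libraries. mt-Tw was higher in clone 2 than in clone 1 by 1.67 on the log2 scale (adjusted p = 0.000782), with both libraries of clone 2 above both of clone 1, from counts of 62 and fewer. mt-Co2 had a log2 fold change of -0.18 (adjusted p = 0.0459) and mt-Atp8 of -0.25 (adjusted p = 0.0493) in clone 2 relative to clone 1. The value of mt-Atp8 passed the threshold in 3 of 14 alternatives and that of mt-Co2 in 5 of 14. Groups of 2 libraries were too small to screen for single libraries far from the rest.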

How the results depend on the processing

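Precision is limited by 2 libraries a group, and intervals on counts would cover counting error only. With labelled KO set against parental cells, 6 members were called. Limma-voom with a random block for the clone called 2 (4 with an unadjusted p under 0.05), and leaving out each library in turn gave 0 to 9, with 0 without parental library 2 (4 at an unadjusted p under 0.05), where the lone parental sample is assumed to vary like the other columns. DESeq2 called 8, of which 7 were higher. For clone 1 against parental, 6 members were called, and 6 to 12 with a library left out (10 without its library 1, 12 without its library 2). For clone 2 against parental, 7 were called, and 3 to 17 with a library left out: 17 and 16 without library 1 or 2 of clone 1, 3 without library 2 of clone 2 and 4 without parental library 1. For clone 2 against clone 1, 3 were called, against 0 with a mean of at least 5 CPM (3 at an unadjusted p under 0.05, and 3 called by DESeq2), where mt-Tw was not tested, 1 with nuclear genes only in library sizes, 1 with upper quartile scaling and 1 to 14 with a library left out (8 and 14 without library 1 or 2 of clone 1, 1 without library 1 of clone 2). The cause of these changes was not tested. In the fits of single libraries, a clone left with 1 library was assumed to vary like the other groups. The difference in mitochondrial share kept its sign, between 0.00471 and 0.514 percentage points.

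A replicate block by the numbers in the labels, which did not pair the samples, gave 5 calls for labelled KO against parental (4 higher, 1 lower), 6 for clone 1, 6 for clone 2 and 2 between the clones.

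Among the values of labelled KO against parental, signs turned only in genes that were not called. On the log2 scale, limma-voom gave 0.074 for mt-Tm, -0.0039 for mt-Co1, -0.037 for mt-Nd4 and -0.19 for mt-Ts2. The average of both clones gave -0.0010 for mt-Co1 and -0.028 for mt-Nd4. A mean of at least 5 CPM gave -0.026 for mt-Co1 and -0.045 for mt-Nd4, and upper quartile scaling -0.042 and -0.061. Without a filter mt-Tm had 0.078 and mt-Co3 0.087, with the replicate block mt-Tm had 0.052, and with pseudogene copies added mt-Co1 had -0.019. DESeq2 and its size factors gave -0.0090 for mt-Nd4. With each library left out in turn, these genes ranged from -0.52 to 0.75 (mt-Tm), -0.30 to 0.0095 (mt-Tn), -0.064 to 0.34 (mt-Tc), -0.075 to 0.24 (mt-Ty), -0.073 to 0.090 (mt-Co1), -0.086 to 0.040 (mt-Co3), -0.014 to 0.17 (mt-Nd4l), -0.15 to 0.12 (mt-Nd4) and -0.18 to 0.45 (mt-Ts2). The cause was not tested.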
